A study of Mus musculus with 6 samples.

Results

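The 10 genes described here, Npas4, Nr4a1, Nr4a3, Arc, Btg2, Ier2, Dusp1, Dusp6, Klf4 and Atf3, are genes whose transcription rises soon after neurons or other cells are stimulated. They were picked by symbol from the 17072 genes that the array annotation pairs with a probeset of their own, and each of the 10 has exactly 1 such probeset. Hypothalamic RNA was measured in female C57Bl/6J offspring aged 21 weeks. The CGP group (3 arrays) came from mothers that received CGP 39551, an antagonist of the N-methyl-D-aspartate receptor (NMDAR), by mouth at 5 mg per kg body weight during pregnancy and up to weaning. The CON group (3 arrays) had no drug, and strain, sex, age and tissue were common to both groups. Each array carried RNA pooled from 18 mice, so the spread between single animals was not measured. The study's methods, written for male mice of the same design, put 1 pool per group on arrays in triplicate, and the labels do not say otherwise for these females. The 3 arrays of a group may thus be repeat hybridisations of 1 pool, so n below counts arrays, and SDs and p-values measure array-to-array variation, not variation between animals.

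Signals from excitatory synapses reach the nucleus through calcium, which enters neurons by way of NMDARs and voltage-gated channels and activates kinases. These phosphorylate the transcription factor CREB, which binds the cyclic AMP response element (CRE), and other factors that are already present, so the first wave of genes needs no new protein. Many products of this wave are transcription factors that act on later genes, while others, such as the dual-specificity phosphatases, switch the kinases off again. Several of the same genes also respond to growth factors, stress and glucocorticoids, and outside neurons.

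Of the 10 genes, 4 had a higher signal in the CGP group, namely Npas4, Nr4a1, Btg2 and Dusp1, with differences of 0.26 to 0.40 on the log2 scale (limma, Benjamini-Hochberg adjustment over all 18239 probesets tested, threshold 0.05). Over the whole array 0.154% of probesets passed in that direction. None of the 10 passed in the other direction, against 0.126% of probesets. At an unadjusted p under 0.05 the counts were 4 higher and 0 lower. After adjustment, 0 were lower also by an ordinary gene-wise test of these arrays and by a trended, robust eBayes. The trended eBayes kept all 4 of the higher calls, but the ordinary gene-wise test kept 1, Nr4a1 (adjusted p = 0.0353). The gene-wise test gave adjusted p of 0.202 for Npas4, 0.239 for Btg2 and 0.174 for Dusp1. It compared only CGP with CON. The test of the study's methods spanned further treatment groups and was not rerun. Leaving out 1 array at a time left 0 to 1 of the 4 calls. All 10 genes passed the filter on low values (a mean log2 signal of at least 6). Of the 10 differences, 9 were positive, against 47.9% of those of all probesets tested. The median difference was 0.09 for the 10 genes and -0.003 for all probesets tested. The 10 genes were chosen with earlier results of these data known, so setting them beside all probesets describes them and tests nothing. None of the 10 passed at a change of 1.4-fold or more, the size set in the study's methods, which 0.0493% of probesets did. The signals below are log2 values, 1 for each array, and since every probeset has its own affinity the level of one gene cannot be set against that of another.

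**Figure D1:**
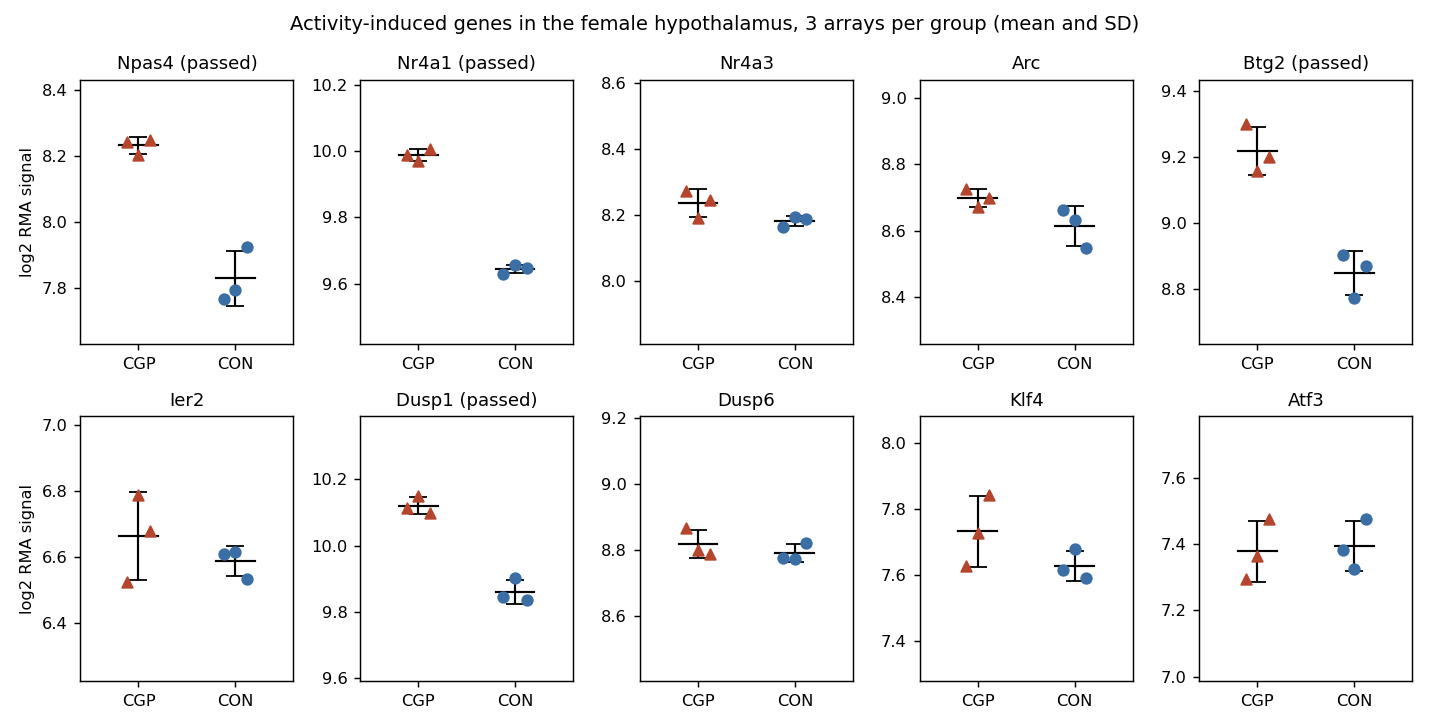
Log2 signal of each of the 10 genes on the 3 CGP arrays (left in each panel) and the 3 CON arrays (right), with points for arrays, bars for the group mean and error bars for the SD. The CGP points lie above all CON points for Npas4, Nr4a1, Btg2, Dusp1 and, by a gap of 0.00661, Arc, and the groups overlap in the other 5 panels.

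Npas4 encodes a transcription factor of neurons that is induced by calcium entry and acts on inhibitory synapses. Its signal was 8.243, 8.202 and 8.250 on the CGP arrays, against 7.768, 7.796 and 7.925 on the CON arrays. The groups did not overlap, and the CON arrays were spread more widely than the CGP arrays, with replicate 3 the highest of the CON group. The group means were 8.23 ± 0.0258 in CGP and 7.83 ± 0.0837 in CON (SD, n = 3 each). The difference was 0.40 (SE 0.0481, 95% interval 0.29 to 0.51, limma adjusted p = 0.0249), which is 1.32-fold, and among all tested probesets it stood at place 7 in order of increase. With 1 array left out in turn, the adjusted p of Npas4 ran between 0.0406 and 0.142, and the call was kept only without CON replicate 3. The Npas4 gene is on chromosome 19 (GRCm38.p6). Its 250 bases before the RefSeq transcription start (chr19:4989972-4990221, minus strand, 5′ to 3′) are shown because they hold 2 CRE half-sites, TGACG or its reverse complement CGTCA, which are in capitals; the window lies within the annotated span of the gene, since another transcript starts further upstream.
Npas4: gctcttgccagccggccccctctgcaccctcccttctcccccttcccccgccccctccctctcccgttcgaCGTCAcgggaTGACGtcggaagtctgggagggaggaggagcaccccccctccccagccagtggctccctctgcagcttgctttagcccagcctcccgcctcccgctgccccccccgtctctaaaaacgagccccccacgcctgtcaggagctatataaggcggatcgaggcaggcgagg

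Nr4a1 and Nr4a3 encode orphan nuclear receptors, which act as transcription factors without a known ligand that switches them on. The Nr4a1 signal was 9.990, 9.971 and 10.006 on the CGP arrays, against 9.630, 9.655 and 9.647 on the CON arrays. Both groups were tight and far apart relative to their spread, with means of 9.99 ± 0.0171 in CGP and 9.64 ± 0.0130 in CON (SD, n = 3 each). The difference was 0.34 (SE 0.0335, 95% interval 0.27 to 0.42, limma adjusted p = 0.0121), or 1.27-fold, and among all tested probesets it stood at place 10 in order of p. Leaving out any 1 of the 6 arrays kept the difference between 0.34 and 0.35, but the adjusted p, at 0.0562 to 0.105, missed the threshold each time. Nr4a3 had signals of 8.273, 8.189 and 8.245 on the CGP arrays, against 8.164, 8.192 and 8.187 on the CON arrays. The groups overlapped, since CGP replicate 2 lay below the highest CON array. The Nr4a3 difference was 0.05 (SE 0.0372, 95% interval -0.03 to 0.14, limma adjusted p = 0.628). Within each array, Nr4a1 minus Nr4a3, taken relative to the CON means, was 0.254, 0.319 and 0.298 in CGP, and the CON values all lay within 0.003 of 0. The changes of the 2 receptors thus differed by 0.29, with no overlap between groups (exact permutation test, two-sided p = 0.1, the smallest that 3 against 3 arrays allow). The third member of this family, Nr4a2, is not among the 10 genes and is given with the other rapid genes.

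The Nr4a1 window before the start (chr15:101266596-101266845, plus strand, GRCm38.p6) is shown for its 4 half-sites, in capitals; it too lies within the annotated span of its gene. Windows with 4 or more half-sites made up 0.231% of the 32851 promoter windows in RefSeq's table. The Nr4a3 window also holds 4, and a pair of them, on opposite strands, lie 3 bases apart at positions -213 to -201 from the start (chr4:48045092-48045104, plus strand), shown on the second line. The receptor that differed between groups and the one that overlapped therefore carried the same number of these letters.
Nr4a1: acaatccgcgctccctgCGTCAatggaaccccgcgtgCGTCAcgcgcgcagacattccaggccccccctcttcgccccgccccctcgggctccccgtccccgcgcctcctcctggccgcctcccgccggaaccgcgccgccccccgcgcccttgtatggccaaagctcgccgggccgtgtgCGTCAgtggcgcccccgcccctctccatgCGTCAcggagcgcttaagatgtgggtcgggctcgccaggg
Nr4a3: CGTCAcatTGACG

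Klf4 and Atf3 are 2 further transcription factors of the set. Klf4 is a zinc finger factor of stem cells and endothelium that also limits axon growth, and Atf3 is a basic leucine zipper factor induced by stress and nerve injury. Klf4 had signals of 7.627, 7.726 and 7.843 on the CGP arrays, against 7.614, 7.678 and 7.591 on the CON arrays, a difference of 0.10 (SE 0.0575, 95% interval -0.03 to 0.24, limma adjusted p = 0.549). CGP replicate 3 was the highest of all 6 arrays, and CGP replicate 1 fell among the CON arrays. Atf3 had signals of 7.296, 7.364 and 7.477 in CGP, against 7.383, 7.325 and 7.477 in CON. Its groups covered almost the same range, and it was the only one of the 10 genes with a negative difference, -0.02 (SE 0.0584, 95% interval -0.15 to 0.12, limma adjusted p = 0.941), and that sign was kept under 13 of 15 alternatives.

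Btg2 and Ier2 are rapid response genes that respond to growth factors as well as to activity. Btg2 restrains cell division and recruits the machinery that shortens messenger RNA tails. Its signal was 9.299, 9.156 and 9.200 on the CGP arrays, against 8.902, 8.773 and 8.871 on the CON arrays. No array of one group reached the other, though each group spread by over 0.1. The means were 9.22 ± 0.0735 in CGP and 8.85 ± 0.0669 in CON (SD, n = 3 each), a difference of 0.37 (SE 0.0518, 95% interval 0.25 to 0.49, limma adjusted p = 0.0419), or 1.29-fold. Without CGP replicate 1, the highest array, the Btg2 difference was 0.33 with an adjusted p of 0.0862, and it missed the threshold without any other array too, up to 0.187. Ier2, a small nuclear protein, was nearest to the filter, with 6.524, 6.789 and 6.679 on the CGP arrays, against 6.611, 6.617 and 6.535 on the CON arrays. CGP replicate 1 lay below every CON array while the other CGP arrays lay above them, and the difference of 0.08 had an interval of -0.08 to 0.23 (SE 0.0659, limma adjusted p = 0.706).

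The Btg2 window (chr1:134079156-134079405, minus strand, GRCm38.p6) is shown because it holds a full CRE, TGACGTCA, in capitals, at positions -166 to -159 from the start. The full element was found in 1.79% of the RefSeq windows and reads the same on both strands, so it counts as 2 overlapping half-sites.
Btg2: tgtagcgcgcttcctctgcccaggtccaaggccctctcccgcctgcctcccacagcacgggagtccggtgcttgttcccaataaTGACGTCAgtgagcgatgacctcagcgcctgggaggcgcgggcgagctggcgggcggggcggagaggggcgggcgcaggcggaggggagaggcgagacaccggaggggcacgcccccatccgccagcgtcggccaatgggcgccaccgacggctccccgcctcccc

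Arc encodes a protein of the postsynaptic density that takes glutamate receptors of the AMPA type off the surface. Its signal was 8.725, 8.670 and 8.698 on the CGP arrays, against 8.663, 8.633 and 8.548 on the CON arrays. The groups did not overlap, but the lowest CGP array exceeded the highest CON array by only 0.00661. The Arc difference of 0.08 (SE 0.0421, 95% interval -0.01 to 0.18) did not pass (limma adjusted p = 0.513). Arc was thus the only gene with separated groups and no call, and 5 of the 10 genes had every CGP array above every CON array, against 7.59% of all probesets. No gene of the 10 had every CGP array below the CON arrays, a pattern found in 9.95% of probesets. The change of Npas4 exceeded that of Arc by 0.32. For that difference the CGP arrays gave 0.303, 0.317 and 0.337 and the CON arrays -0.110, -0.052 and 0.162, relative to the CON mean, with CON replicate 3 closest to the CGP arrays (exact permutation test, two-sided p = 0.1, the smallest possible).

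Dusp1 and Dusp6 are dual-specificity phosphatases that remove phosphate from mitogen-activated protein (MAP) kinases. Dusp1 is nuclear and acts on p38, JNK and ERK, and Dusp6 is cytoplasmic and acts mainly on ERK. Dusp1 signals were 10.114, 10.149 and 10.100 on the CGP arrays, against 9.845, 9.902 and 9.835 on the CON arrays. The CGP arrays were all higher, and the means were 10.12 ± 0.0252 in CGP and 9.86 ± 0.0358 in CON (SD, n = 3 each). The difference was 0.26 (SE 0.0369, 95% interval 0.18 to 0.35, limma adjusted p = 0.0441), or 19.8% higher in CGP, the smallest of the 4 that passed. It lost the call without any 1 of the 6 arrays (adjusted p 0.0979 to 0.216). Dusp6 signals were 8.866, 8.799 and 8.786 in CGP, against 8.775, 8.772 and 8.822 in CON. They overlapped, and the difference was 0.03 with an interval of -0.06 to 0.12 (SE 0.0385, limma adjusted p = 0.829). The change of Dusp1 was 0.23 larger than that of Dusp6. Within arrays, that difference was 0.177, 0.279 and 0.243 in CGP, against -0.001, 0.059 and -0.058 in CON, without overlap (exact permutation test, two-sided p = 0.1, the smallest possible). The 3 pairs, Nr4a1 with Nr4a3, Npas4 with Arc and Dusp1 with Dusp6, were chosen after their values were seen, and adjusting over the 3 pairs left each p at 0.1.

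The Dusp1 window (chr17:26508473-26508722, minus strand, GRCm38.p6) is shown as the other one with a full CRE, at positions -143 to -136, and it has a separate half-site at -191 to -187, both in capitals.
Dusp1: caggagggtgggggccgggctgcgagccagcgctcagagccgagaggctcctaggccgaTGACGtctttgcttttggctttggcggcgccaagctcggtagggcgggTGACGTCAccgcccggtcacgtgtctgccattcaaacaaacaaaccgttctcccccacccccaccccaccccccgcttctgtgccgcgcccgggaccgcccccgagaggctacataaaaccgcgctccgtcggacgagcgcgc

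**Figure D2:**
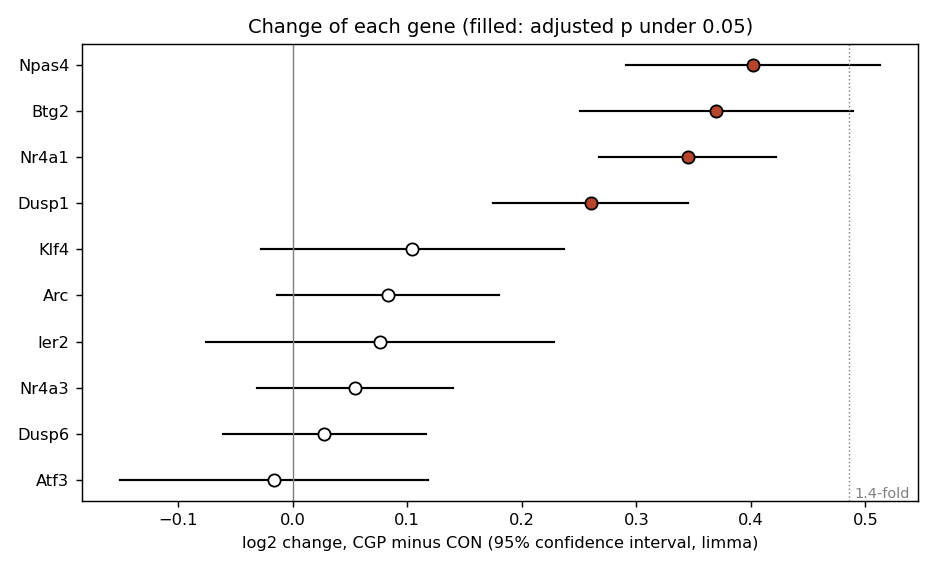
Log2 difference, CGP minus CON, of each of the 10 genes with its 95% interval from the limma fit. The intervals of Npas4, Btg2, Nr4a1 and Dusp1 lie above 0, that of Dusp1 lowest at 0.18 to 0.35, and those of the other 6 include 0.

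Windows of 300 bases, 250 before and 50 after the start, were found for 8 of the 10 genes in the RefSeq table, all but Arc and Ier2, and were searched on both strands. The full CRE was in 2 of the 8, Btg2 and Dusp1. The half-site TGACG, added to the search after the data were seen, was in 7 of the 8 and in 20.8% of all windows. Of the genes that passed, Nr4a1 had 4, Dusp1 3, and Npas4 and Btg2 2 each. Of the others, Nr4a3 had 4, Klf4 and Atf3 1 each, and Dusp6 none. Whether half-sites go with the group difference was not tested, since 8 windows and letters added after the data were seen cannot decide it. The AP-1 letters TGANTCA (7.81% of windows), the NBRE AAAGGTCA bound by the Nr4a receptors (1.51%), the EGR letters GCGTGGGCG (0.612%), TATAAA (13.6%) and the CArG box bound by serum response factor (1.63%) were in none of the 8. A match is only a run of letters, and binding was not measured.

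**Figure D3:**
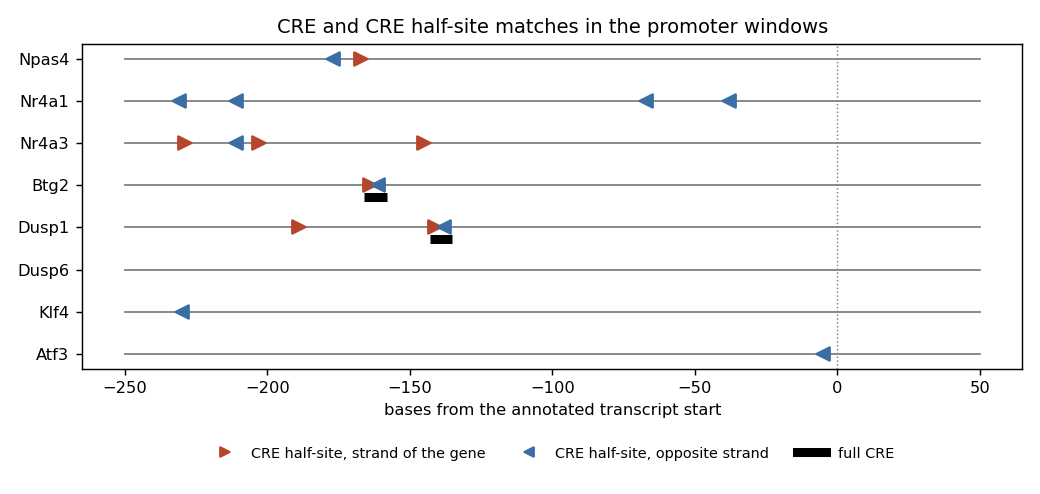
Position of CRE half-sites and full CREs in the promoter windows of 8 genes, in bases from the RefSeq transcription start, with arrowheads for half-sites on the strand of the gene (pointing right) or the opposite strand (pointing left) and black bars for full CREs. Full CREs lie at -166 to -159 in Btg2 and at -143 to -136 in Dusp1, and no half-site was found in Dusp6.

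The same genes were compared with other genes of the activity response. Of 23 other rapid response genes none passed in either direction in the limma fit (4 higher and 0 lower at an unadjusted p under 0.05, and 0 by those other tests), and their median difference was 0.04. The differences ran between -0.15 for Ptgs2, the inducible cyclooxygenase, and 0.15 for Nr4a2. Nr4a2, the receptor needed for dopamine neurons, had signals of 9.972, 10.008 and 9.888 on the CGP arrays, against 9.765, 9.811 and 9.841 on the CON arrays. Its groups did not overlap, but the difference of 0.15 (SE 0.0439) did not pass (limma adjusted p = 0.303). The Fos, Jun and Egr genes, which encode subunits of AP-1 and zinc finger factors of the same first wave, were all 11 positive, with a median of 0.14. Of these, 3 passed, namely Fos at 0.38 (limma adjusted p = 0.0484), Fosb at 0.35 (0.0185) and Egr1 at 0.32 (0.0165). The trended eBayes called the same 3, the ordinary gene-wise test 1, and every fit with 1 array left out 0.

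Among the 9 other MAP kinase phosphatases, the relatives of Dusp1 and Dusp6, none passed (1 higher and 1 lower at an unadjusted p under 0.05, and 0 by those other tests). Their differences ran between -0.12 for Dusp9 and 0.11 for Dusp14, with a median of 0.05. Delayed activity response genes follow the first wave and encode growth factors and synaptic proteins. None of the 10 passed (2 higher and 0 lower unadjusted, and 1, Nrn1, by the trended eBayes), and they split into 4 positive and 6 negative differences around a median of -0.004. Nptx2, a pentraxin that gathers AMPA receptors, had the highest of them at 0.16, followed by the neuritin gene Nrn1 at 0.13 (limma adjusted p = 0.266). The 18 measured upstream regulators and partners, such as CREB, MEF2 factors and calcium-dependent kinases, ran between -0.07 for Creb1 and 0.13 for Mef2a, with a median of 0.01 and none passed (2 higher and 0 lower unadjusted, and 1, Mef2a, by the trended eBayes). The differences of the 4 genes that passed lay above those of the listed regulators, of the delayed genes and of most other rapid genes. These 4 were picked for passing, which few genes in those lists did, so that order was largely fixed beforehand. It was not tested.

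**Figure D4:**
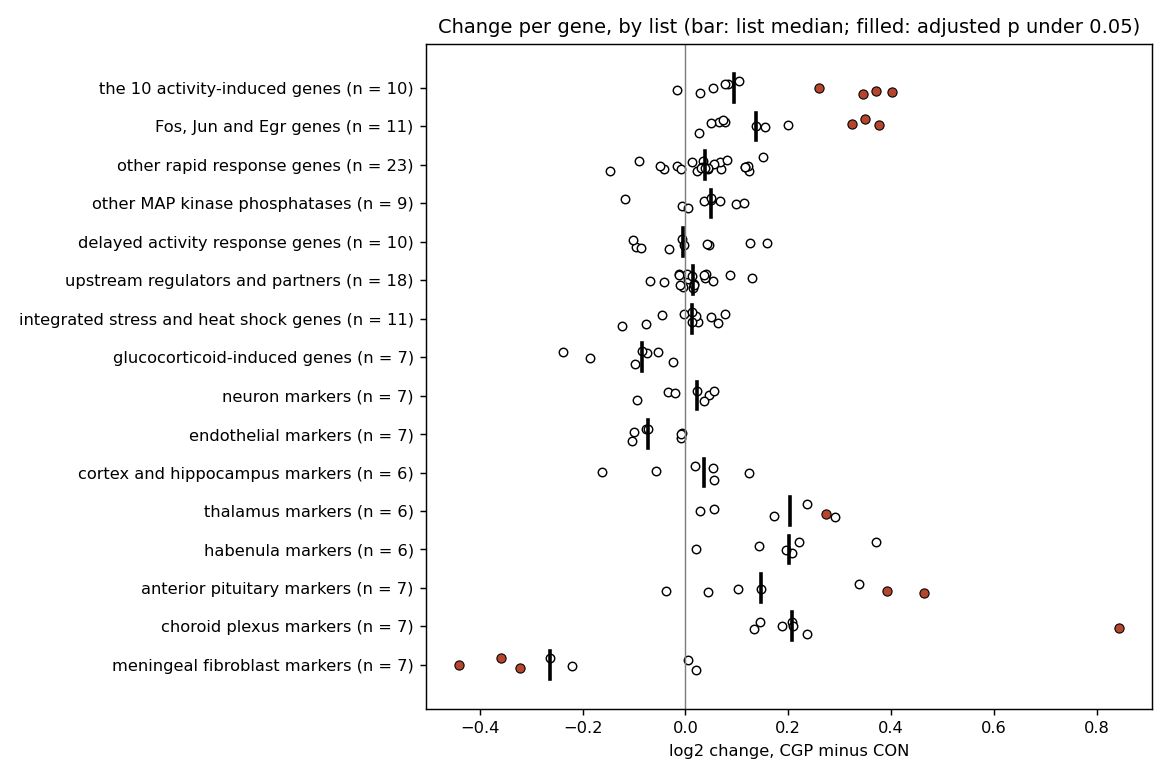
Log2 difference, CGP minus CON, of every tested gene in the lists shown, with the median of the list as a bar and filled points for a limma adjusted p under 0.05. The 10 activity-induced genes have a median of 0.09 and 4 filled points, the Fos, Jun and Egr genes a median of 0.14 and 3, and the delayed genes a median of -0.004 and none.

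By profile over the 6 arrays, the genes most like Npas4 outside the 10 were Gh, Slc4a5, Fosb, Chrnb4 and Egr1. Likeness was the root mean square difference after the CON mean of each gene was subtracted, and it was 0.0527 for Gh, 0.0619 for Slc4a5, 0.0647 for Fosb, 0.0655 for Chrnb4 and 0.0750 for Egr1, among 15676 genes. Gh encodes growth hormone and is a marker of the anterior pituitary, Slc4a5 a bicarbonate transporter of the choroid plexus, and Chrnb4 a nicotinic receptor subunit dense in the habenula. Within the 10 genes, Nr4a1 (0.0615) and Btg2 (0.0714) were as near to Npas4 as these, Dusp1 was at 0.121, and the other 6 were at 0.229 or more. The profile uses both groups, so it is set mostly by the size of the group difference.

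Markers of some neighbouring tissues had mostly positive differences, as the 4 genes did, though few passed. All 6 thalamus markers were positive (median 0.20) and 1 passed, Prkcd at 0.27 (limma adjusted p = 0.0467; 4 by the trended eBayes), with a mean signal of 9.87 to 9.92 on the CGP arrays and 9.69 to 9.76 on the CON arrays. All 6 habenula markers were positive (median 0.20), none passed (5 higher unadjusted, and 2, Chrnb4 and Chrna3, by the trended eBayes), and their mean signal was 8.18 to 8.24 in CGP and 7.99 to 8.04 in CON. All 7 choroid plexus markers were positive, Ttr passed at 0.84 (2 by the trended eBayes), and the mean signal was 8.46 to 8.50 in CGP and 8.17 to 8.21 in CON. Anterior pituitary markers, of which 6 of 7 were positive and Gh and Lhb passed (3 by the trended eBayes), had a mean of 10.01 to 10.04 in CGP and 9.78 to 9.84 in CON. Of 7 meningeal fibroblast markers, 5 were negative and 2 positive (Lum at 0.02 and Col1a2 at 0.004). In this list 3 passed as lower, Ogn, Fmod and Slc6a20a (5 by the trended eBayes). The mean signal was 8.28 to 8.35 in CGP and 8.52 to 8.55 in CON. Of 5 pericyte and smooth muscle markers, Acta2 was lower, at -0.35 (limma adjusted p = 0.0249), and their mean was 8.48 to 8.49 in CGP and 8.58 to 8.60 in CON. By the ordinary gene-wise test no marker in any list passed, and no fit with 1 array left out called more than 1 per list. No neuron marker of 7 passed (median 0.02, 0 higher and 1 lower unadjusted). Of the regions where Npas4 and Arc are strongly inducible, none of 6 cortex and hippocampus markers (median 0.04, 1 higher and 1 lower unadjusted) or 5 striatum markers (median 0.05, 1 higher unadjusted) passed. Of the 15 marker lists, 5 had every CGP array mean above the CON ones (thalamus, habenula, choroid plexus, anterior pituitary and striatum, the last at 9.86 to 9.89 in CGP and 9.82 to 9.83 in CON). In 7 lists the CGP means were all below, namely the meningeal, pericyte, endothelial, astrocyte, oligodendrocyte, microglia and hypothalamus lists. The hypothalamus list was only just so, with a highest CGP mean of 10.699, a lowest CON mean of 10.702 and 3 of its 9 genes positive. In 3 lists the groups overlapped (neuron, cortex and hippocampus, and adrenal gland). Of single probesets, 7.59% had every CGP array above the CON arrays and 9.95% every CGP array below. The astrocyte (median -0.06), oligodendrocyte (-0.05), microglia (-0.08) and hypothalamus (-0.02) lists had no gene that passed (2, 1, 2 and 2 lower unadjusted). The part of these lists in the differences of Npas4, Nr4a1, Btg2 and Dusp1 was not tested. In bulk tissue, a change in the number of cells of a type and a change in RNA per cell cannot be told apart.

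Genes tied to other inducers of Dusp1, Btg2, Klf4 and Atf3 were also read. None of 7 glucocorticoid-induced genes passed in the limma fit, although all 7 differences were negative, with a median of -0.08 and the strongest at -0.24 for Zbtb16 (adjusted p = 0.0526; 0 higher and 3 lower at an unadjusted p under 0.05, and 2 lower, Zbtb16 and Pdk4, by the trended eBayes). Among 11 genes of the integrated stress response and heat shock, the range was -0.12 for Ddit3, the partner of Atf3 in the stress response, to 0.08 for Hspb1, with a median of 0.01 and none passed (0 higher and 1 lower unadjusted). Dusp1, which glucocorticoids and stress also induce, had a difference of 0.26, above the values in both lists. Any link between Dusp1 and these inducers was not tested. All 7 endothelial markers were negative (median -0.07, none passed, 1 lower unadjusted), beside a positive difference that did not pass for Klf4, which endothelium expresses.

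The 6 arrays were alike over all tested probesets, with correlations of 0.997 to 0.998 within groups and 0.996 to 0.998 between them, and medians of 8.19 to 8.21. The first 2 principal components held 35.0% and 21.7% of the variance. On the first, CGP replicates 2 and 3 stood at 8.05 and 6.40, and the CON arrays at -8.75 to -0.74. CGP replicate 1, at -0.90, lay among the CON arrays there, and it stood apart on the second at -9.67. Without it, the differences were 0.40 for Npas4, 0.34 for Nr4a1, 0.33 for Btg2 and 0.26 for Dusp1, with adjusted p of 0.0750, 0.0562, 0.0862 and 0.0979, so sizes held and calls did not. The labels name the hypothalamus as the source of RNA but speak of adrenal glands in the account of treatment. Hypothalamus markers had mean signals of 8.22 to 12.52 and adrenal markers 6.06 to 7.03, given as they stand, since levels of different probesets do not settle which label holds.

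**Figure D5:**
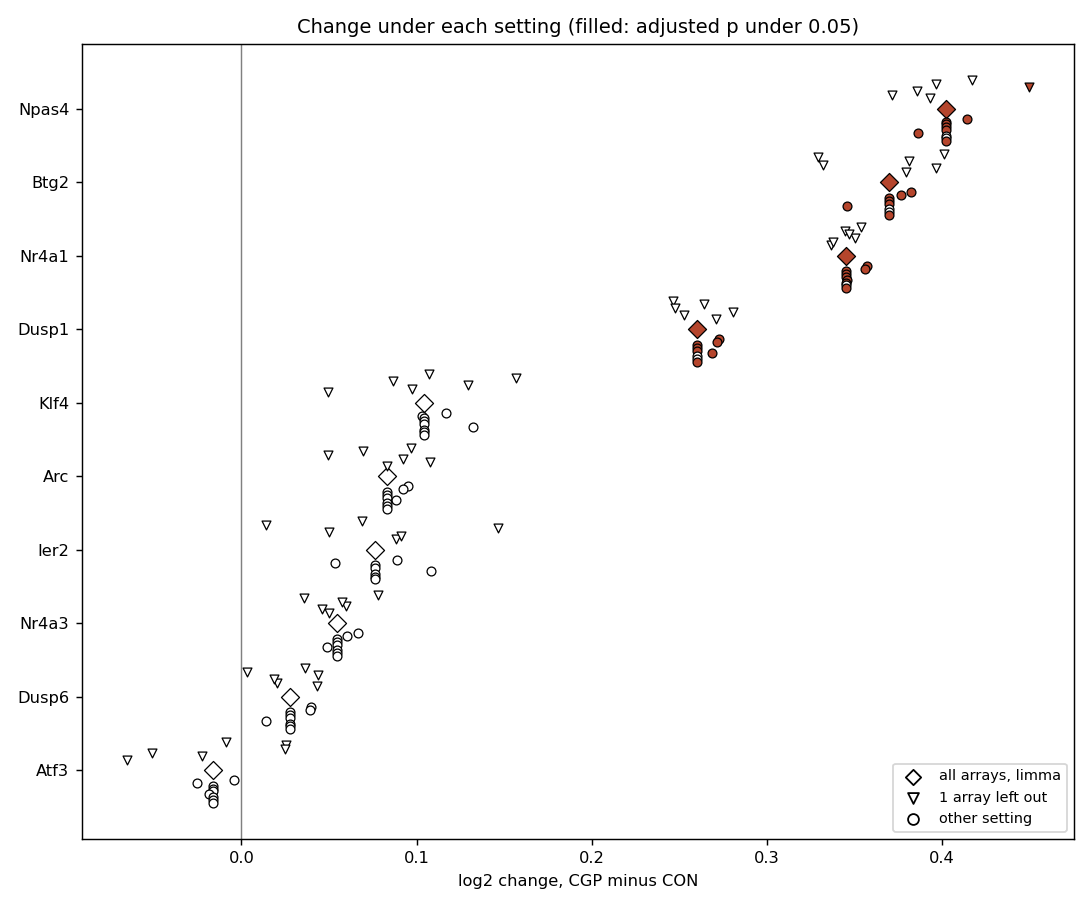
Log2 difference, CGP minus CON, of each of the 10 genes with all arrays (diamonds), with 1 array left out (triangles) and under 9 other settings (circles), filled where the adjusted p was under 0.05. The differences of Npas4, Btg2, Nr4a1 and Dusp1 stay positive throughout, with Dusp1 the lowest at 0.246 to 0.281, while filled triangles are found for Npas4 alone.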

How the data were processed

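Labelled RNA of the 6 pooled samples was hybridised to Affymetrix Mouse Gene 1.0 ST arrays. The authors deposited log2 values per probeset, for which the submitters' processing notes name RMA and Partek; RMA sets all arrays to a shared distribution, so a shift common to most genes would not be seen. The study's methods are written for male mice of the same design and were taken to hold here. For those males they describe earlier behavioral tests, and an overnight fast and a mixture of xylazine and ketamine before tissue was taken. The effect of such handling on these rapid genes was not tested. The build of the array design was not given in the sources used here, so no probeset coordinates are printed. Of 28471 probesets, 18690 have 1 gene in GEO's annotation, 1163 have several and 8618 are not listed; 18620 Entrez IDs matched RefSeq (GRCm38.p6), and no symbol changed. Several-gene probesets were left out, and 451 others fell below a mean of 6, which left 18239. CGP was compared with CON by limma 3.58.1 (lmFit and eBayes, two-sided, Benjamini-Hochberg over all 18239) in R 4.3.3, which was tested on simulated data. An ordinary ANOVA of these arrays, other normalizations, filters and variance models, array weights, the replicate number as a block and leaving out each array made up 15 alternatives. The ANOVA of the methods spanned further treatment groups and was not rerun. Exact permutation tests and motif searches used Python 3.11.15 and SciPy 1.17.1. The genes and lists were chosen with earlier results of these data known. All 10 genes are named; of other lists, the genes that passed or else those with the strongest change, and the 5 genes nearest to Npas4 by profile. No array values were left out.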

Additional observations from a re-analysis of the deposited data

How the results depend on the processing

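Under 15 alternatives the differences of Npas4 (0.37 to 0.45), Nr4a1 (0.34 to 0.36), Btg2 (0.33 to 0.40) and Dusp1 (0.25 to 0.28) kept their direction, and the calls depended on the error estimate. Of the 10 genes, 4 were higher in CGP with limma, against 1 (Nr4a1) with the ordinary ANOVA, 0 with the replicate block and 0 to 1 with 1 array left out. Over all probesets, 28 were higher and 23 lower in CGP, against 113 and 136 with a trended, robust eBayes, 39 and 38 with array weights, 44 and 37 with a filter at 7, 37 and 18 with median-centred arrays, 4 and 2 with ANOVA, 2 and 4 with the block, and 2 to 5 and 3 to 8 with 1 array left out. The trended, robust eBayes also called 1 delayed activity response gene (Nrn1) higher, against 0. With the replicate block in limma, the adjusted p was 0.0942 for Npas4 and Nr4a1, 0.0872 for Btg2 and 0.162 for Dusp1. Same-numbered arrays deviated together with r of 0.0776, -0.179 and 0.113. Arrays with different numbers were not compared in this way, so whether the numbers pair the arrays was not settled. Ier2 dropped out under a filter at 7. With 3 arrays of pooled RNA per group, the number of arrays limits the precision of the intervals. As the arrays of a group may repeat 1 pool, the intervals do not cover variation between animals. Intervals that include 0 do not show that a gene did not differ.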
